A study of Mus musculus with 8 samples.

Results

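The genes described here are the nuclear genes of oxidative phosphorylation in mouse natural killer (NK) cells. They were chosen by symbol: Nduf genes, Sdha to Sdhd, Uqcr genes, Cox4 to Cox8 genes, Cyc1, Cycs and Atp5 genes, leaving out rows with a pseudogene name and rows with fewer than 10 reads over the 8 libraries. Of the 48321 symbols counted, 100 matched, 6 of them had pseudogene names, and Cox7b2, Cox8b and Cox8c were listed at 0 reads, which left 91 members. The filter on low counts kept 88 of them for testing, and the other 3 were Cox6b2, Cox7a1 and Ndufa4l2.

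RNA was sequenced from NK cells freshly sorted as CD45+ TCRβ- NK1.1+ from the lung and the spleen of C57/Bl6 mice of 2 genotypes, with 2 libraries for each of the 4 groups. WT mice carried no engineered allele, and KO mice were homozygous for ΔPE, a germline deletion of the proximal enhancer of the chemokine gene Ccl5 that a pair of guide RNAs had made (Ccl5 ΔPE/ΔPE). The comparison asks which genes differ in NK cells that lack this enhancer, and the deletion is present in every cell of the KO mice, not in NK cells alone. The mice received no treatment, and the labels give no ages. Nothing in the labels or methods ties the libraries to individual mice, and p-values therefore measure only how far these libraries spread, which may be technical.

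Oxidative phosphorylation runs in the inner mitochondrial membrane. Complex I (NADH dehydrogenase) and complex II (succinate dehydrogenase) pass electrons to ubiquinone, complex III passes them on to cytochrome c, and complex IV (cytochrome c oxidase) hands them to oxygen, while complex V (ATP synthase) uses the proton gradient that complexes I, III and IV build. Resting NK cells hold a low rate of this process and raise it, together with glycolysis, when cytokines activate them. The mitochondrial genome encodes some core subunits of complexes I, III, IV and V, whereas the remaining subunits, all of complex II, cytochrome c and the assembly factors are nuclear. Transcription factors such as NRF1, GABP and YY1 are known to bind promoters of nuclear subunit genes.

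RefSeq promoter windows on GRCm38.p6, which run from 250 bases before to 50 bases after a start site, were available for 72 of the 91 members. The NRF1 motif was searched on both strands as GCGC, any base, T and GCGC, and 26.4% of these members held it in a window, against 12.3% of the genes tested and 5.19% of all genes with a window. The ETS motif of GABP (CCGGAAG) stood in 23.6% of members, 22.1% of genes tested and 9.93% of all genes, and the YY1 motif (AAGATGGC), which can share its AAG with the ETS motif, in 12.5%, 5.74% and 3.19%. The 6 stretches of 60 bases that follow lie before the start site, outside every annotated exon, and hold an NRF1 match. No other member window with an NRF1 match allowed such a stretch, and the response of the gene played no part in the choice. Capitals mark the match, and the letters read 5′ to 3′ on the gene's strand.
Ndufa11, chr17:56717686-56717745, + strand: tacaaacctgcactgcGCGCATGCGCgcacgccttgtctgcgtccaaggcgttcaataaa
Ndufb4, chr16:37654525-37654584, - strand: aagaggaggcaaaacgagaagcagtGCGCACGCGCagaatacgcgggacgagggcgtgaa
Ndufs5, chr4:123718250-123718309, - strand: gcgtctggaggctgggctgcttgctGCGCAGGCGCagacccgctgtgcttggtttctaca
Atp5h, chr11:115420026-115420085, - strand: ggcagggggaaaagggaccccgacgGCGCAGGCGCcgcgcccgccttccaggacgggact
Ndufaf4, chr4:24897945-24898004, + strand: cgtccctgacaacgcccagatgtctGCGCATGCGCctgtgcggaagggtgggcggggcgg
Cox6a1, chr5:115349041-115349100, - strand: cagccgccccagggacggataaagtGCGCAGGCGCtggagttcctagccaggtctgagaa
A match is only a match of letters. By the tests between genotypes, Ndufa11, Ndufb4, Ndufs5 and Atp5h were lower in KO lung and higher in KO spleen, Ndufaf4 was lower in KO lung, and Cox6a1 was higher in KO lung. An NRF1 match was as frequent in members called lower in lung and higher in spleen (25.8% of 31 with a window) as in the other members (26.8% of 41).

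Between 3132963 and 26482366 reads were counted per library, so that 3 reads, the limit that a count of 0 allows, corresponded to 0.115 to 0.979 CPM. Levels are CPM, the reads of a gene relative to the library size after TMM scaling, and values of a group are given in the order of its replicate numbers. Limits of 3 reads cover counting error only. Values after ± are standard errors from the test and also include the spread between libraries that the fit estimated. Ccl5 itself was measured at 19520 and 18350 CPM in lung WT against 2992 and 3195 in lung KO, and 16680 and 15660 in spleen WT against 2676 and 2432 in spleen KO, so it was lower in all 4 KO libraries than in any WT library. All 7 NK markers examined were present, and their sum moved with genotype in the same directions as most members: it was 36570 to 37700 CPM in lung WT against 30060 to 30110 in lung KO, and 26780 to 27010 CPM in spleen WT against 33920 to 35650 in spleen KO. Gzma (granzyme A) made up most of this sum. Singly, 4 of the 7 were called lower and 2 higher in KO lung, and 5 higher and 2 lower in KO spleen; Prf1 (perforin) and Tbx21 (T-bet) were the genes that went against the sum in both organs, and Eomes was not called in lung. The lung libraries also held epithelial transcripts, at 239.1 to 239.4 CPM summed over Sftpc, Scgb1a1 and Epcam in WT and 311.5 to 346.4 CPM in KO, against at most 0.651 CPM in spleen. Singly, Sftpc was called higher in KO lung (log2 fold change 0.80) and Scgb1a1 lower (-0.46), and Epcam was not tested. Erythroid markers summed to 24.7 to 27.7 CPM in WT lung and to 48.9 to 52.5 in KO lung, and platelet markers to 28.5 to 29.7 and 5.94 to 6.67 CPM. In the same groups myeloid markers summed to 142.8 to 149.0 and 161.7 to 169.8 CPM, with Adgre1 at 0 in every library, and endothelial markers to 66.1 to 70.1 and 84.9 to 86.0 CPM; of these only Lyz2 and Pecam1 were called higher in KO lung. All 3 neutrophil markers were at 0 in every library. In sorted populations, fewer cells of a type and less RNA per cell cannot be told apart, and the part of the NK markers and of these other transcripts in the results was not tested.

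In KO lung NK cells most nuclear subunit genes that moved were lower, and in KO spleen NK cells most were higher. Of the 88 members tested, 50 fell and 9 rose in lung (edgeR quasi-likelihood test, Benjamini-Hochberg adjusted p below 0.05), where 26.4% of all 12595 genes were called lower and 29.2% higher. In spleen 55 rose and 5 fell, where 28.2% of all genes were called higher and 28.9% lower. The median log2 fold change of the members was -0.22 in lung and 0.26 in spleen, against 0.02 and 0.00 over all genes tested. With the trend of fold change on exon length removed these medians shrank to -0.14 and 0.15, with 44 members lower and 11 higher in lung and 46 higher and 11 lower in spleen. With library totals in place of TMM scaling the members' median in lung was -0.13 and that of all genes 0.11, so that the distance between them was -0.24 under either scaling. The members' share of all counted reads was 1.32% and 1.28% in lung WT against 1.2% and 1.23% in lung KO, and 1.34% and 1.28% in spleen WT against 1.52% and 1.45% in spleen KO. WT and KO did not overlap in this share in either organ. The share of aligned reads that were multimapped, and so not counted, moved with genotype in the same directions: 30.8% and 30.3% in lung WT against 29.7% and 29.8% in lung KO, and 31.2% and 30.8% in spleen WT against 33.2% and 33.1% in spleen KO. Its part in the results was not tested.

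**Figure D1:**
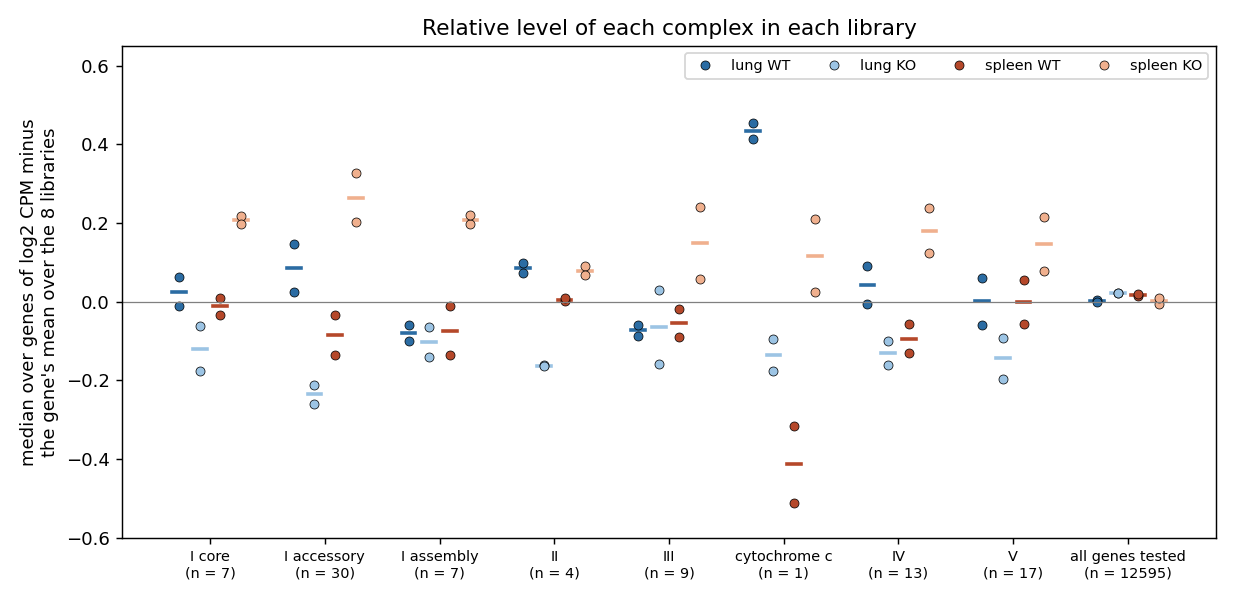
Each point is 1 library, and its height is the median, over the genes of a class, of the log2 CPM minus the gene's mean over the 8 libraries; bars are the means of the 2 libraries of a group. Over the 30 accessory subunits of complex I the lung KO libraries lie at -0.26 and -0.21 and the spleen KO libraries at 0.20 and 0.33, while the 12595 genes tested stay between -0.01 and 0.02.

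The 2 libraries of a group also differed, and the members shared part of that difference. The median over members of replicate 1 minus replicate 2 on the log2 scale was 0.11 for lung WT but -0.03 for lung KO, and 0.07 for spleen WT and 0.11 for spleen KO. Calls therefore leaned on single libraries in places: without lung WT replicate 1 the number of members called lower in lung was 31, and without spleen WT replicate 2 the number called higher in spleen was 37. The number called lower in spleen was 3 without spleen WT replicate 1 and 1 without spleen KO replicate 2. The fit found a common biological coefficient of variation of 2.5%, and when 20% was assumed in its place edgeR's likelihood ratio test called no member in lung or in spleen, with 2 members lower in lung and 2 higher in spleen at an unadjusted p under 0.05. The tests thus speak to differences beyond the spread of these 8 libraries.

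The opposite directions in the 2 organs concerned largely shared members. Of the members called in both organs (41), 36 were lower in KO lung and higher in KO spleen, which is 72.0% of those lower in lung and 65.5% of those higher in spleen; over all genes tested the same pattern held for 48.5% and 45.4%. Atp5b, Cyc1 and Sdhc went the other way, and Atp5k was lower in both. The difference between the KO effects, tested directly as an interaction, was negative (lung minus spleen) for 63 members and positive for 7, where 29.0% and 32.5% of all genes were called. Its median over the members was -0.47 on the log2 scale, -0.30 with the length trend removed and -0.31 with library totals, where the median of all genes was 0.19. The group mean was lowest in lung KO for 57 of the 88 members and highest in spleen KO for 56. The lung and the spleen comparisons shared no library, but the interaction used the libraries of both.

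**Figure D2:**
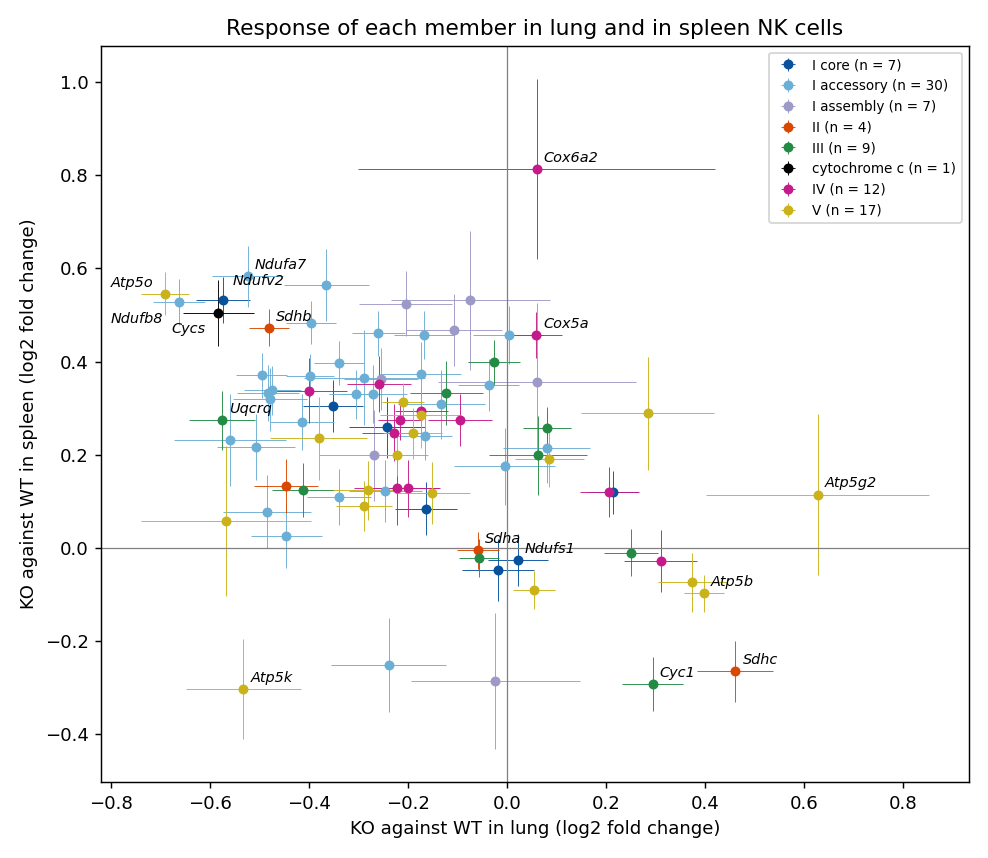
Each point stands for a tested member other than Cox4i2, placed by its log2 fold change (KO against WT) in lung on the horizontal axis and in spleen on the vertical axis, with SE bars and colours for the complexes. The upper left part, lower in KO lung and higher in KO spleen, holds most members, from Atp5o at -0.69 and 0.55 inward; Sdhc, Cyc1 and Atp5b stand in the lower right.

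The counts by class and list below stand beside shares of all genes tested of 26.4% lower and 29.2% higher in lung. In spleen these shares were 28.2% higher and 28.9% lower. Complex I had 44 tested members, of which 29 fell and 1 rose in KO lung while 32 rose and 1 fell in KO spleen. Among its 30 accessory subunits 23 fell and none rose in lung (median -0.34), and 24 rose and 1 fell in spleen (median 0.33).

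**Figure D3:**
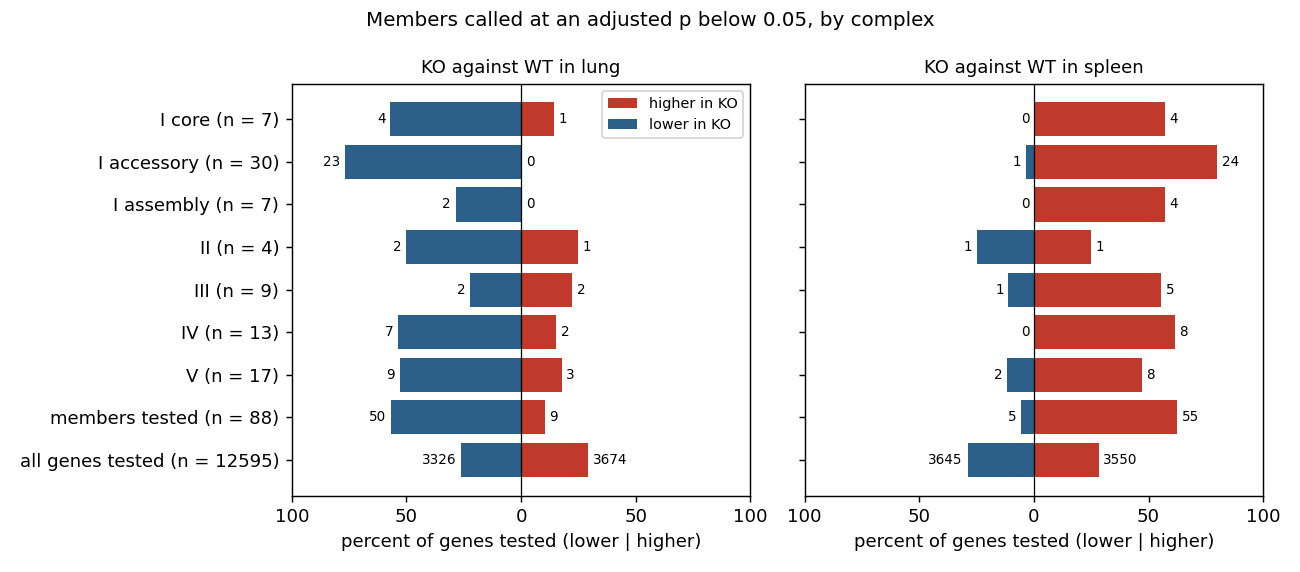
Bars give, for each class, the percent of its tested genes called lower (to the left) and higher (to the right) in KO, in 1 panel per organ; the numbers beside them are gene counts. In lung 23 of the 30 accessory subunits of complex I were lower, in spleen 24 of them were higher, and the bar for all 12595 genes is nearly balanced in both panels.

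Ndufb8, an accessory subunit of the membrane arm (19:44548572-44555440, - strand, GRCm38), was measured at 292 and 275 CPM in lung WT against 173 and 186 in lung KO, and 200.1 and 195 in spleen WT against 302 and 277 in spleen KO. The WT and KO libraries did not overlap in either organ. It fell by 36.8% in lung (log2 fold change -0.66 ± 0.05 SE, adjusted p = 2.8e-13) and rose by 44.2% in spleen (0.53 ± 0.05, adjusted p = 2.6e-11). Ndufa8, an accessory subunit with cysteine motifs of the intermembrane space, was lower in lung (-0.49 ± 0.05) and higher in spleen (0.37 ± 0.05), as was Ndufb10 (-0.40 ± 0.05 and 0.48 ± 0.05). Members whose promoter stretches are shown also moved in opposite directions, with log2 fold changes in lung and spleen of -0.48 and 0.32 for Ndufa11, -0.56 and 0.23 for Ndufb4, and -0.29 and 0.37 for Ndufs5. Without spleen WT replicate 2 the spleen calls of these genes were lost (adjusted p = 0.064, 0.74 and 0.11), that of Ndufb4 also without spleen KO replicate 1 (0.095), and the lung call of Ndufs5 was lost without lung WT replicate 1, lung KO replicate 1 or lung KO replicate 2 (adjusted p = 0.41, 0.12 and 0.13). Ndufa4, named as a complex I gene but now known as a subunit of complex IV, followed them at -0.30 ± 0.06 and 0.33 ± 0.05. The single accessory subunit called lower in spleen was Ndufb2 (-0.25 ± 0.10, adjusted p = 0.031), and without spleen WT replicate 1 or spleen KO replicate 2 this call was lost (adjusted p = 0.23 and 0.43).

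Among the 7 core subunits, which carry the flavin and the iron-sulfur clusters, 4 fell and 1 rose in lung and 4 rose in spleen. Without lung WT replicate 1 or lung KO replicate 1, 2 fell, and without spleen WT replicate 2 or spleen KO replicate 2, 2 rose. Ndufv2, which holds an iron-sulfur cluster of the NADH-oxidising module (17:66078638-66101559, - strand), had 262 and 232 CPM in lung WT against 165 and 171 in lung KO, and 203 in either spleen WT library against 302 and 289.9 in spleen KO. Its log2 fold change was -0.57 ± 0.05 in lung and 0.53 ± 0.05 in spleen, a difference between organs of -1.11 ± 0.07. Ndufs8, an iron-sulfur subunit next to the ubiquinone site, changed from 154 and 142 to 113 and 119.9 CPM in lung and from 123 and 132 to 162 and 158 CPM in spleen. Ndufs1, the largest core subunit, did not pass the test in either organ (0.02 ± 0.06 and -0.03 ± 0.06), with 122 to 133 CPM in all 8 libraries. Ndufv1, which binds FMN, was likewise not called (-0.02 ± 0.07 and -0.05 ± 0.07). With the trend of fold change on GC content removed, Ndufv1 was called higher in KO spleen (0.17, adjusted p = 0.024).

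The 7 Ndufaf genes encode assembly factors of complex I. In spleen 4 rose and none fell. In lung 2 fell (28.6%, near the 26.4% of all genes) and none rose. Ndufaf1, a factor of the intermediate assembly complex, had 44.3 and 41.2 CPM in lung WT against 39.9 and 35.8 in lung KO, and 56.7 and 54.9 in spleen WT against 81.3 and 79.5 in spleen KO. It rose in spleen (0.52 ± 0.07, adjusted p = 5.6e-08) and was not called in lung (-0.20 ± 0.09, adjusted p = 0.063), and the difference between organs was called (-0.73 ± 0.12). Ndufaf3 behaved similarly (0.47 ± 0.08 in spleen, -0.11 ± 0.10 and not called in lung). Ndufaf7 fell in lung (-0.25 ± 0.07) and rose in spleen (0.36 ± 0.07), and its lung call was lost without lung KO replicate 1 (adjusted p = 0.076). Ndufaf4 fell in lung (-0.27 ± 0.11, adjusted p = 0.037), a call that was lost without lung WT replicate 1 or without either lung KO library (adjusted p between 0.057 and 0.48).

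Complex II, which also belongs to the citrate cycle, split between its 4 subunits. Sdhb, the iron-sulfur subunit (4:140961203-140979193, + strand), had 573 and 556 CPM in lung WT against 408 and 403 in lung KO, and 429.6 and 414 in spleen WT against 584 and 583 in spleen KO. It fell by 28.3% in lung (-0.48 ± 0.04, adjusted p = 1.3e-12) and rose by 38.7% in spleen (0.47 ± 0.04, adjusted p = 1.3e-12). Sdhd, a membrane anchor that helps to form the ubiquinone site, fell in lung (-0.45 ± 0.06) and was not called in spleen (0.13 ± 0.06, adjusted p = 0.053). Sdhc, the other membrane anchor (1:171127165-171150603, - strand), went the other way. It had 58.7 and 55.7 CPM in lung WT against 76.1 and 81.6 in lung KO, and 77.4 and 85.8 in spleen WT against 69.5 and 68.7 in spleen KO. The log2 fold change was 0.46 ± 0.08 in lung and -0.27 ± 0.07 in spleen (adjusted p = 3.9e-06 and 0.00078), and the spleen call was lost without spleen WT replicate 2 or spleen KO replicate 2 (adjusted p = 0.16 and 0.077). Sdha, the flavoprotein that oxidises succinate, was not called in either organ (-0.06 ± 0.04 and -0.01 ± 0.04), with 402 to 461 CPM over the 8 libraries.

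Complex III was mixed. In lung 22.2% of its members were called in either direction, near the 26.4% lower and 29.2% higher of all genes tested. In lung 2 of the 9 members of complex III fell and 2 rose, and in spleen 5 rose and 1 fell, or 3 rose without spleen WT replicate 2. Uqcrq, a small subunit (11:53427922-53430831, - strand), had 169 and 165 CPM in lung WT against 111 and 113 in lung KO, and 135 and 114 in spleen WT against 162 and 143 in spleen KO. It fell in lung (-0.58 ± 0.07) and rose in spleen (0.27 ± 0.06), a rise lost without spleen WT replicate 2 (adjusted p = 0.23), whereas Uqcr10 fell in lung (-0.41 ± 0.06) and was not called in spleen (0.12 ± 0.06, adjusted p = 0.064). Uqcrh and Uqcrc2 rose in spleen by 0.40 ± 0.05 and 0.26 ± 0.04 and were not called in lung. Uqcrc1, a core protein of the matrix side, was not called in either organ, at 477 to 494 CPM in spleen and 518 to 559 CPM in lung. Uqcrfs1, the Rieske iron-sulfur protein, rose in lung (0.25 ± 0.05), from 161 and 151 to 187 CPM in both KO libraries, and was not called in spleen (-0.01 ± 0.05).

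Cyc1 encodes cytochrome c1, the haem subunit of complex III. It rose in lung from 108 and 109 to 129 and 136 CPM (0.29 ± 0.06) and fell in spleen from 129 and 121 to 99.9 and 101 CPM (-0.29 ± 0.06). This is a GC-rich gene (61.4% of its longest transcript), and with the GC trend removed its log2 fold changes were -0.07 in lung and 0.02 in spleen, neither of them called. Cycs, cytochrome c itself, is the carrier between complexes III and IV and also a trigger of apoptosis when released. It had 117 and 114 CPM in lung WT against 80.03 and 75.6 in lung KO, and 68.7 and 59.9 in spleen WT against 98.9 and 87.0 in spleen KO, with no overlap between WT and KO in either organ. The fall in lung was 33.2% (-0.58 ± 0.07) and the rise in spleen 41.8% (0.50 ± 0.07). In its longest transcript 28.5% of 50-base stretches also occurred in other annotated genes, among them Gm10053 and Gm10108, and reads that align to more than 1 place were not counted.

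Complex IV had 13 tested members, of which 7 fell and 2 rose in lung and 8 rose in spleen. The number that fell in lung was 2 without lung WT replicate 1 and 4 without lung KO replicate 1. Cox5b, a zinc-binding subunit of the matrix side (1:36691449-36693681, + strand), had 119 and 112 CPM in lung WT against 90.5 and 86.9 in lung KO, and 99.9 and 85.8 in spleen WT against 132 and 110.2 in spleen KO. It fell in lung (-0.40 ± 0.08) and rose in spleen (0.34 ± 0.07), and the spleen call was lost without spleen WT replicate 2 (adjusted p = 0.075). Cox4i1, the common isoform of the regulatory subunit 4, followed with -0.22 ± 0.04 and 0.27 ± 0.04. Cox5a rose in spleen (0.46 ± 0.05) and was not called in lung (0.06 ± 0.05), and the difference between the organs was called (-0.40 ± 0.07). Cox6a1 and Cox8a, the ubiquitous isoforms of their subunits, rose in lung, by 0.31 ± 0.07 and 0.21 ± 0.06, and were not called in spleen. With the GC trend removed both had log2 fold changes below 0 in lung (-0.09 and -0.08, not called), and Cox6a1 was then called higher in spleen (0.30).

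Tissue-restricted isoforms of complex IV were scarce. Cox4i2, known from lung and hypoxic tissue, had 12 and 7 reads in WT lung, 8 and 3 in KO lung and 0 in all 4 spleen libraries. With the spleen set at 3 reads over the group, its lung level was 6.68 times as high in WT and 8.73 times in KO. These ratios leave out the counting error of the lung reads, so they are not lower bounds. Ndufa4l2, a hypoxia-inducible relative of Ndufa4, had 11 reads over lung WT, 9 over lung KO and 0 in spleen. Its ratios, taken in the same way, were 3.87 in WT and 7.15 in KO. Both genes were found only in the lung libraries, which also held epithelial, erythroid and platelet transcripts, and the cells they came from were not tested. Cox6a2, the heart and muscle isoform, was higher in spleen, at 6.25 and 5.14 CPM in WT and 8.81 and 9.84 in KO against 2.07 to 3.07 CPM in the 4 lung libraries. Its rise in KO spleen (0.81 ± 0.19) was lost without spleen WT replicate 2 or spleen KO replicate 2 (adjusted p = 0.068 and 0.12). Cox6b2, a testis isoform, and Cox7a1, a muscle isoform, had 56 and 22 reads over the 8 libraries and were not tested.

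Among the 17 tested Atp5 genes, the class of complex V, 9 fell and 3 rose in lung and 8 rose and 2 fell in spleen. This class holds Atp5sl, whose current name Dmac2 stands for a complex I assembly factor, and Atp5s, which is not a structural subunit of the enzyme; without them 8 of 15 fell and 3 rose in lung, and 7 rose and 2 fell in spleen. Over all 17, without lung WT replicate 1, 4 fell in lung, and without spleen WT replicate 2, 3 rose in spleen. Atp5o, the stalk subunit that confers oligomycin sensitivity (16:91925214-91931687, - strand), had 380.4 and 359.6 CPM in lung WT against 232 and 229 in lung KO, and 257 and 254 in spleen WT against 395 and 362 in spleen KO. It fell by 38.0% in lung (-0.69 ± 0.05, adjusted p = 8.9e-15) and rose by 45.9% in spleen (0.55 ± 0.05, adjusted p = 1.8e-12), with the most negative difference of all members (-1.24 ± 0.07). Its exons overlap antisense genes, and 34.9% of the 50-base stretches of its longest transcript recur elsewhere. Atp5c1, the central stalk subunit gamma, fell in lung (-0.21 ± 0.04) and rose in spleen (0.31 ± 0.04). Atp5j fell in lung (-0.29 ± 0.06), a call lost without lung WT replicate 1 (adjusted p = 0.054), and its exons overlap the antisense gene Gabpa by 397 bases. Atp5h, whose promoter stretch is shown, was at -0.19 ± 0.06 in lung and 0.25 ± 0.05 in spleen, with the lung call lost without lung WT replicate 1 or lung KO replicate 2 (adjusted p = 0.28 and 0.16) and the spleen call without spleen WT replicate 2 (adjusted p = 0.056). Atp5k, a small membrane subunit, was lower in both organs (-0.53 ± 0.12 and -0.30 ± 0.11), and these calls were lost without lung WT replicate 1 (adjusted p = 0.12) and without spleen WT replicate 1 or spleen KO replicate 2 (adjusted p = 0.18 and 0.78).

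Atp5b, the catalytic beta subunit (10:128083273-128090391, + strand), differed from these. It had 370.0 and 369 CPM in lung WT against 487 in either lung KO library, and 444 and 446 in spleen WT against 416 in either spleen KO library. It rose by 31.7% in lung (0.40 ± 0.04, adjusted p = 1.7e-10), and in spleen it fell by 6.56% (-0.10 ± 0.04, adjusted p = 0.032), a call lost without any single spleen library (adjusted p between 0.06 and 0.19). Atp5d, the delta subunit of the central stalk, rose in lung (0.37 ± 0.07) and was not called in spleen (-0.07 ± 0.06). With the GC trend removed its lung value was 0.06 and not called. Atp5a1, the alpha subunit, was not called (0.05 ± 0.04 and -0.09 ± 0.04). The 3 genes of the c ring encode the same mature protein: Atp5g1 fell in lung (-0.38 ± 0.10) and rose in spleen (0.23 ± 0.09), Atp5g2, at 4.92 to 10.03 CPM, rose in lung (0.63 ± 0.22), and Atp5g3 rose in spleen (0.19 ± 0.06). Each of these c ring calls was lost when 1 library was left out, with adjusted p between 0.062 and 0.23.

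**Figure D4:**
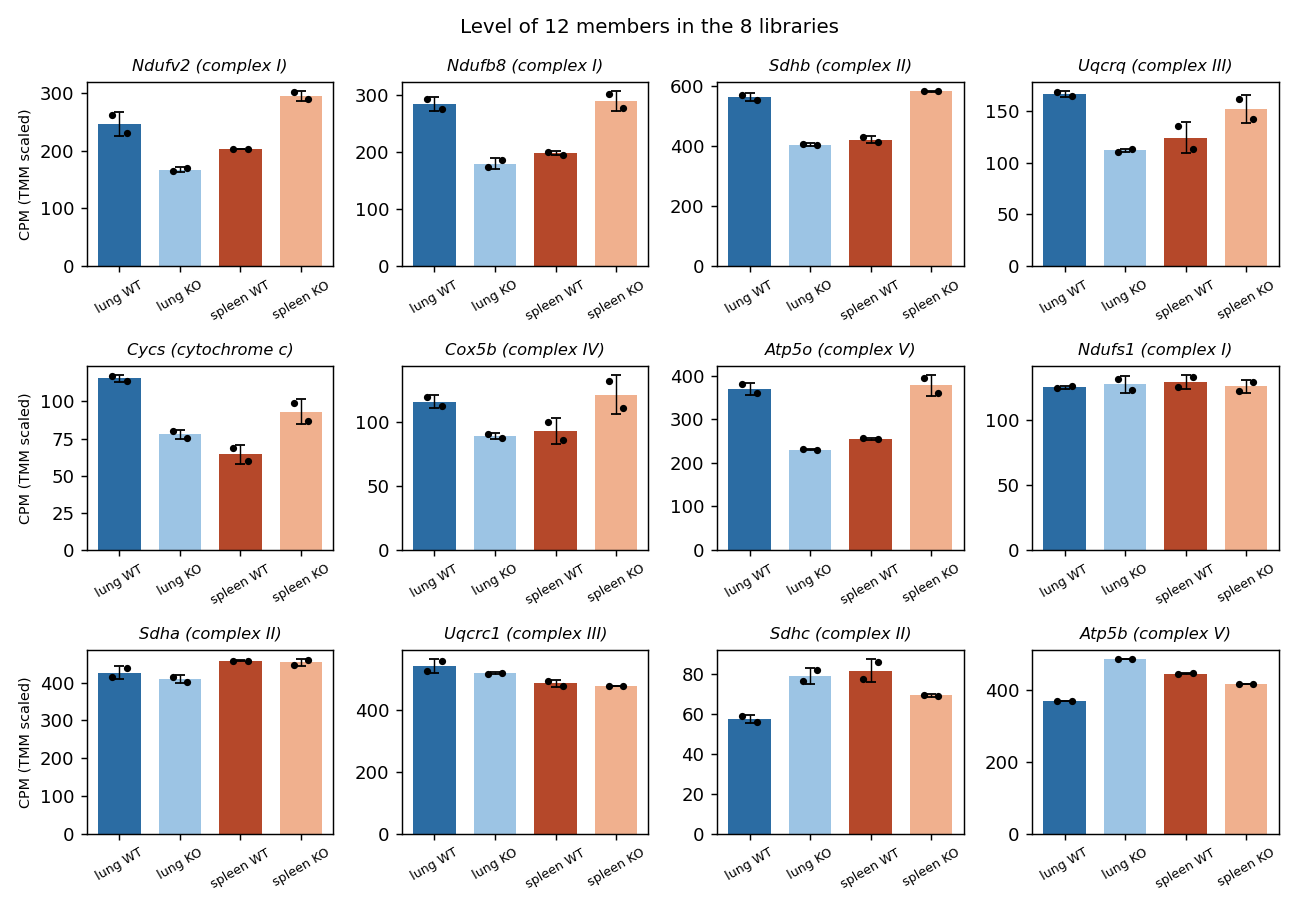
Bars are the mean CPM of 12 members in lung WT, lung KO, spleen WT and spleen KO, points are the 2 libraries and error bars the SD (n = 2). Ndufv2, Ndufb8, Sdhb, Uqcrq, Cycs, Cox5b and Atp5o are lower in KO lung and higher in KO spleen, Ndufs1, Sdha and Uqcrc1 stay near 1 level between the genotypes of an organ, and Sdhc and Atp5b run the other way.

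Across organs, WT lung NK cells held more of many members than WT spleen NK cells, and in KO the order was turned. In WT 41 members were higher in lung and 17 lower, where 27.7% and 29.3% of all genes were called, with a median log2 difference of 0.13, which was 0.07 with the length trend removed, 0.02 with library totals (where that of all genes was -0.12), 0.06 without lung WT replicate 1 and 0.07 without spleen WT replicate 2. In KO 6 were higher in lung and 67 lower, where 33.9% and 31.7% of all genes were called, with a median of -0.33. These contrasts use the libraries of the KO against WT comparisons and are no further evidence for them. Cycs was highest in lung WT and lowest in spleen WT, 0.88 ± 0.07 apart on the log2 scale, and in KO lung was lower than spleen by 0.20 (-0.20 ± 0.07), a call lost without lung KO replicate 2 (adjusted p = 0.15) and at 0.01 with the GC trend removed. Ndufb6 was the accessory subunit with the most positive WT difference among those named (0.57 ± 0.06). Sdhc (-0.52 ± 0.08), Cox6a1 (-0.40 ± 0.07), Atp5b (-0.27 ± 0.04) and Sdha (-0.11 ± 0.04) were lower in WT lung than in WT spleen, and the Sdha call was lost without lung WT replicate 1 (adjusted p = 0.53) or spleen WT replicate 2 (adjusted p = 0.11). Leaving out lung WT replicate 1 left 22 members higher in WT lung, and leaving out spleen WT replicate 2 left 23; in KO, leaving out lung KO replicate 2 or spleen KO replicate 2 left 3 and 2 members higher in lung.

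In KO, Ndufaf1 was at 37.8 CPM on average in lung and 80.4 in spleen. The log2 difference of -1.09 ± 0.08 was the most negative of the complex I genes, followed by Ndufv2 at -0.80 ± 0.05 and Ndufb9 at -0.77 ± 0.05. Atp5o and Atp5c1 were lower in KO lung than in KO spleen by 0.69 (-0.69 ± 0.05) and 0.47 (-0.47 ± 0.04) on that scale. Sdhc (0.20 ± 0.07), Cyc1 (0.40 ± 0.06) and Atp5b (0.23 ± 0.04) were higher in KO lung, so that for these genes too the organ order differed between the genotypes. The Sdhc call was lost without lung KO replicate 2 or spleen KO replicate 2 (adjusted p = 0.19 and 0.16), and with the GC trend removed Cyc1 was at -0.06 and not called.

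Other genes of the pathway came from lists of assembly factors, regulators and metabolic partners. Of 33 tested assembly factors of complexes II to V, 17 fell and 1 rose in lung and 17 rose and 5 fell in spleen; without lung WT replicate 1 the number that fell in lung was 6, and without spleen WT replicate 2 or spleen KO replicate 2 the number that rose in spleen was 10 or 9, and that fell in spleen 4 or 2. Coa3, a factor that stabilises nascent COX1, had 279 and 278 CPM in lung WT against 169 and 189 in lung KO, and 201 and 184 in spleen WT against 319.6 and 310.0 in spleen KO. It fell by 35.3% in lung and rose by 64.3% in spleen. Ttc19, a complex III factor, fell in lung (-0.99 ± 0.14), and Surf1, a complex IV factor, fell in lung (-0.23 ± 0.07; lost without lung WT replicate 1 or lung KO replicate 1, adjusted p = 0.051 and 0.084) and rose in spleen (0.39 ± 0.06). Of 6 further complex I assembly factors 3 fell and 1 rose in lung. In spleen 1 rose and 1 fell (16.7% each), below the shares of all genes. Tmem126b moved like the subunits (-0.49 ± 0.07 and 0.34 ± 0.06), while Acad9 was lower in KO in both organs (-0.45 ± 0.11 and -0.41 ± 0.10); its spleen call was lost without spleen WT replicate 2 or spleen KO replicate 2 (adjusted p = 0.35 and 0.067).

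Genes that regulate the pathway showed the reverse counts. Of 14 tested, 8 rose and none fell in lung (median 0.35), and 2 rose and 6 fell in spleen (median -0.11). Without lung WT replicate 1, 5 rose in lung, and without spleen KO replicate 2, 2 fell in spleen; DESeq2 gave the same 2 counts. Gabpa, the DNA-binding subunit of GABP, had 55.5 and 53.4 CPM in lung WT against 89.5 and 92.0 in lung KO, and 69.9 and 68.1 in spleen WT against 65.3 and 65.5 in spleen KO. It rose by 66.1% in lung (0.73 ± 0.07) and was not called in spleen (-0.07 ± 0.07), and the interaction was called (0.80 ± 0.10). Ucp2, an uncoupling-family carrier of the inner membrane, rose in lung (0.28 ± 0.05) and fell in spleen (-0.31 ± 0.05). Ppargc1b, a coactivator of the nuclear respiratory genes, had 1 and 0 reads in lung WT against 23 and 16 in lung KO, and 15 and 19 in spleen WT against 2 and 24 in spleen KO, too few for a fold in lung. Tfam, which packages and transcribes mitochondrial DNA, rose in spleen (0.71 ± 0.07), from 45.5 and 49.9 to 82.6 and 78.3 CPM, and was not called in lung (-0.10 ± 0.08). Counting was not stated to use strand, so reads of Gabpa and of Atp5j in their shared exon stretch cannot be told apart.

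The mitochondrially encoded subunits moved in the direction of the nuclear ones. Of the 13 genes 8 were tested. In lung 7 of them fell and none rose, and in spleen all 8 rose (median -0.62 and 0.36). The spleen value of mt-Atp6 leaned on 1 library, with 1 and 3 reads in WT against 2 and 68 in KO. The untested mt-Nd3, mt-Nd4l, mt-Co2, mt-Co3 and mt-Atp8 had 3 to 33 reads over the 8 libraries, against 352910 for mt-Cytb. mt-Cytb, the cytochrome b of complex III, had 8233 and 7701 CPM in lung WT against 4791 and 4683 in lung KO, and 3913 and 3926 in spleen WT against 5278 and 5121 in spleen KO. mt-Co1, a catalytic subunit of complex IV, fell in lung (-0.47 ± 0.04) and rose in spleen (0.50 ± 0.04), and mt-Nd2 was at -0.85 ± 0.05 and 0.23 ± 0.05. With the GC trend removed the medians were -0.19 in lung and 0.07 in spleen, and 3 of the mitochondrially encoded subunits were then called in spleen. The citrate cycle split, with 8 of 13 genes lower and 3 higher in lung and 5 higher and 4 lower in spleen; 5 were lower in lung without lung KO replicate 1, 4 were lower in lung with the GC trend removed, and 3 were higher in spleen without spleen WT replicate 2. In spleen the citrate cycle shares of 38.5% higher and 30.8% lower stood beside 28.2% and 28.9% of all genes. Sucla2, a subunit of succinyl-CoA synthetase, fell in lung (-0.76 ± 0.04) and rose in spleen (0.38 ± 0.04). Ogdh, a subunit of the 2-oxoglutarate dehydrogenase complex, instead rose in lung (0.62 ± 0.05) and fell in spleen (-0.55 ± 0.05).

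**Figure D5:**
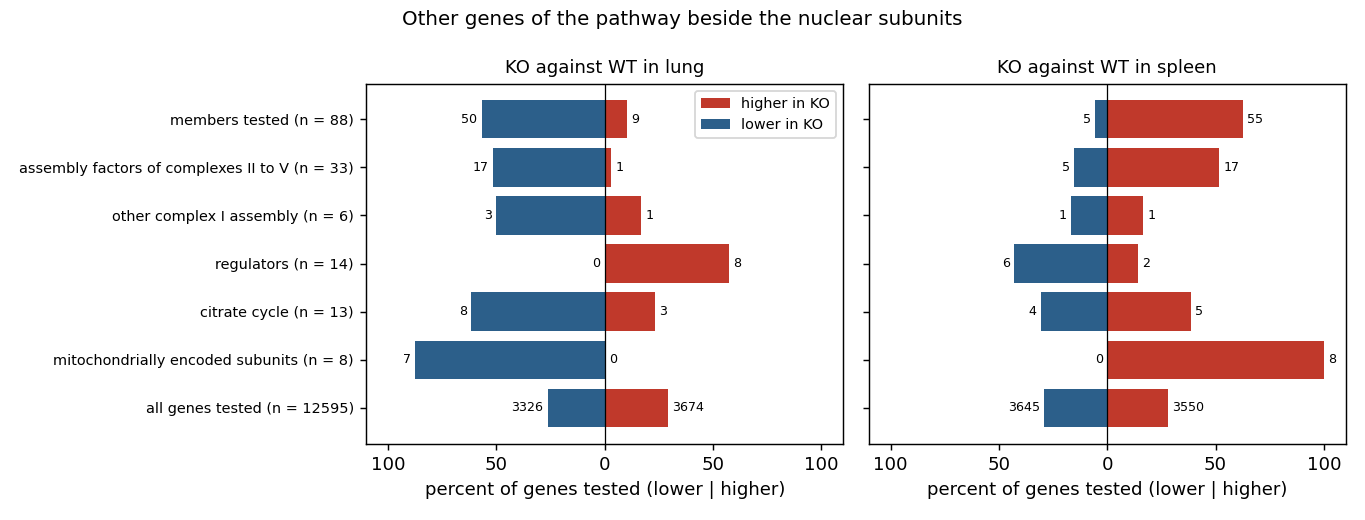
Bars give the percent of the tested genes of each list that were lower (left) or higher (right) in KO than in WT, for lung and spleen, with gene counts beside them. The mitochondrially encoded subunits lie with the nuclear members, with 7 of 8 lower in lung and 8 of 8 higher in spleen, and the regulators lie opposite, with 8 of 14 higher in lung and 6 of 14 lower in spleen.

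Per kilobase of exon, the median member stood at 72.3 CPM per kb over the 8 libraries. Cox6b1 (377 CPM per kb) and Cox4i1 (330.2 CPM per kb) were the highest, and among tested members other than Cox4i2 the assembly factor Ndufaf2 (4.61 CPM per kb) and the c ring gene Atp5g2 (4.71 CPM per kb) were the lowest. In Ndufaf2 80.9% of the 50-base stretches of the longest transcript recur in other genes, and 14.8% in Atp5g2. Exons of Ndufaf2 also overlap an antisense gene by 1955 bases, while the whole exon length was the divisor. Members are short genes, with a median exon length of 1795 bases against 4008 over the genes tested, and those at or below this median had 27 of 44 lower in KO lung and 27 higher in KO spleen, against 23 and 28 of the longer 44; the smaller medians with the length trend removed are given with the counts over all members. At least 1 stretch of 50 bases recurred in another gene for 48 members and the exons of 32 overlapped another gene. Of the 36 tested members with neither, a subset chosen after values had been seen, 20 fell and 3 rose in lung and 18 rose and 1 fell in spleen. Over all genes the KO effect followed GC content, with Spearman's rho of 0.29 in lung and -0.27 in spleen over 12501 genes, and over the 88 members the values were 0.12 and -0.22; these are descriptions, since genes of 1 library share its base composition bias. With the GC trend removed 45 members fell and 7 rose in lung, and 59 rose and 3 fell in spleen.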

How the data were processed

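The 8 RNA-seq libraries of NK cells (50 bp reads; lung and spleen, WT and KO, 2 libraries each) were grouped by their titles. The authors aligned reads to mm10 with HISAT2 2.1.0 and counted them per gene with HTSeq (version 0.11.1 in the submitters' processing notes), and they deposited raw read counts per gene symbol; the annotation and the strand setting are not given in the sources used here. HTSeq's categories of uncounted reads were left out of library sizes: 44.3% to 46.6% of uniquely aligned reads were counted, and 29.7% to 33.2% of aligned reads were multimapped and not counted. How this affects genes with processed copies cannot be told from the counts. Symbols were matched to GENCODE M21 (GRCm38) for coordinates, exon length and GC content (46394 by name, 578 by an older symbol, 1349 unmatched), and promoter windows came from RefSeq (GRCm38.p6).

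Counts were tested in R 4.3.3 with edgeR 4.0.16: filterByExpr, TMM scaling, 1 mean per group over the 8 libraries, the quasi-likelihood test and Benjamini-Hochberg adjustment over 12595 genes, called at 0.05. Standard errors were derived from the F statistic. DESeq2 1.42.0, offsets that removed each library's trend with GC content or exon length (natural splines, 5 df), other scalings, filters and thresholds, only the 4 libraries of a comparison, a replicate block and leaving out each library were alternatives. The steps were tested on simulated data.

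The members and lists were chosen with earlier results of these data known. In each comparison the text names, per class and direction, up to 2 called members of smallest p whose libraries do not overlap, a fixed list of subunits and isoforms, untested members, and up to 2 genes of each further list; Ndufa11, Ndufb4, Ndufs5, Ndufaf2, Atp5h and Atp5k, which fall outside this rule, and genes described in a comparison other than the one that named them were chosen after their values were seen. Of the members this rule names, 1 is not reported here. No batch is labelled. Replicate numbers were not found to pair libraries.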

Additional observations from a re-analysis of the deposited data

Results flagged for a closer look

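The KO effect differed between lung and spleen, by the interaction test, for these 21 members among others. They are up to 2 called members of smallest p in each class and direction, and Cox5a, for one, was called as well. The log2 difference (effect in lung minus effect in spleen) was -1.24 for Atp5o, -1.19 for Ndufb8, -1.11 for Ndufv2, -1.09 for Cycs, -0.95 for Sdhb, -0.88 for Ndufb10, -0.85 for Uqcrq, -0.74 for Cox5b, -0.73 for Ndufaf1, -0.66 for Ndufs8, -0.62 for Ndufaf7, -0.58 for Sdhd, -0.54 for Uqcr10, -0.52 for Atp5c1 and -0.49 for Cox4i1. It was positive for Sdhc (0.73), Cyc1 (0.59), Atp5b (0.50), Atp5d (0.45), Cox6a1 (0.34) and Uqcrfs1 (0.26). The calls for Cyc1, Atp5d and Cox6a1 did not hold their direction when the GC trend was removed, and that for Cox6a1 was also lost without spleen KO replicate 2 (adjusted p = 0.073).

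Reads were also counted on rows with pseudogene names, which no comparison used: 320 on Atp5k-ps2, 174 on Uqcrh-ps2 and 75 on Uqcrh-ps1 over the 8 libraries. Groups of 2 libraries are too small for a search for outlying samples.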

How the results depend on the processing

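The log2 fold changes of the named genes, both members and genes of the further lists, were repeated 4002 times under another setting. Of these repeats 3445 kept their side of the threshold, 457 lost a call and 58 gained one. Another 42 turned sign with a call under the main setting, the other setting or both. A change of sign without any call was counted among the 3445, so 42 is not the number of all sign changes. The cause of the changes was not tested. With the GC trend removed, and with it removed beside a replicate block (second value), KO against WT in lung gave -0.0702 and -0.0742 for Cyc1, -0.0877 and -0.0721 for Cox6a1, -0.0843 and -0.0707 for Cox8a, and 0.0164 for Ndufaf4 (with the block). In spleen they gave 0.0202 and 0.0223 for Cyc1, 0.1675 and 0.1678 for Ndufv1, and 0.3037 and 0.3349 for Cox6a1. The difference of the KO effects was -0.0904 and -0.0965 for Cyc1, -0.3914 and -0.407 for Cox6a1, -0.1384 and -0.1346 for Atp5d, -0.4225 and -0.4317 for Ndufv1, and -0.4641 and -0.4612 for Cox8a. Lung against spleen in WT was 0.0121 for Ndufb9, 0.0351 and 0.032 for Cyc1, and, with the block, -0.1276 for Cox5a; in KO it was -0.0553 and -0.0502 for Cyc1, 0.01 for Cycs, -0.148 and -0.1693 for Atp5d, and -0.2245 and -0.2107 for Ndufv1. With the length trend removed, Cox6b1 was at 0.0322 in lung and 0.0007 for lung against spleen in KO, Cox8a at -0.1271 in spleen and 0.1317 in KO, Cox7a2 at 0.0474 for the difference and 0.0646 in KO, and Cox6a1 at 0.2419 in KO. With library totals, Cox4i1 was at -0.0029 for lung against spleen in WT, where the median of all genes was -0.12 in place of -0.01.

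Counts of members called moved as follows. Library totals gave 14 higher and 37 lower in lung, 11 higher for the difference and 26 higher in WT lung. DESeq2 gave 1 lower in spleen, 27 higher and 9 lower in WT lung, and 3 higher in KO lung. No filter on low counts, the GC trend removed, and this with the block each gave 3 lower in spleen; the length trend removed gave 11 lower in spleen and 10 higher in KO lung. A threshold of 0.001 gave 2 lower in spleen, 4 higher for the difference, 21 higher and 8 lower in WT lung, and 3 higher in KO lung. A minimum fold of 1.2 gave 2 higher and 23 lower in lung, 20 higher and 0 lower in spleen, 4 higher for the difference, 11 higher and 3 lower in WT lung, and 2 higher and 42 lower in KO lung. An assumed coefficient of variation of 0.2 gave 0 higher and 0 lower in lung, 0 and 0 in spleen, 0 and 4 for the difference, 2 and 1 in WT lung, and 1 and 4 in KO lung. Leaving out 1 library at a time gave 8 to 9 higher and 31 to 52 lower in lung, 37 to 59 higher and 1 to 5 lower in spleen, 5 to 7 and 58 to 63 for the difference, 22 to 43 and 12 to 14 in WT lung, and 2 to 6 and 59 to 64 in KO lung; the group left with 1 library was assumed to vary like the others.

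By class, the number lower in lung was 4, 5, 2 and 10 by DESeq2 for complex IV, complex V, the complex I core and the assembly factors of complexes II to V, with library totals 2 for the complex I core and 3 for complex IV, and for complex IV 3 with the length trend and 4 with the GC trend removed. The number higher in spleen was 4, 2 and 8 by DESeq2 for complex V, the complex I core and these assembly factors, 5 for complex V with library totals, and 3 for complex III with the length trend removed.

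Equal replicate numbers did not mark pairs: their deviations from the group means correlated at -0.0139 between the genotypes of lung, 0.169 of spleen, and 0.00447 and -0.0758 between organs in WT and KO, over 5103 genes. With the replicate number as a block, 9 members were higher and 48 lower in lung, 64 and 6 in spleen, 7 and 63 for the difference, 37 and 16 in WT lung, and 6 and 66 in KO lung.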
